A study of Mus musculus with 30 samples.

Results

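The 56 genes described here encode the machinery that copies DNA in S phase and the proteins that feed it, package its product, repair it or switch it on. They were chosen by gene symbol from a count table of 54532 genes, and each of the 56 is in that table. By role they comprise 10 helicase loading genes, 6 helicase activation genes, 8 genes of polymerases and primase, 9 genes of the sliding clamp, its loader and the single-strand binding protein, 2 genes of lagging strand joining, 5 of nucleotide supply, 6 of chromatin copying, 6 of repair and checkpoint, and 4 S phase entry regulators.

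The study compared ways of isolating and culturing microglia, the resident macrophages of the brain, from C57/B6 mice by bulk RNA sequencing, with and without 4 h of HMGB1. HMGB1 is a nuclear chromatin protein that, once outside the cell, is read as a danger signal by innate immune receptors. There were 30 libraries, 3 in each of 10 groups, from 5 protocols with a Control group and an HMGB1 group each. Protocols 1A, 1B and 1C took pups at postnatal day 0 to 3, 5 mice per suspension with a separate litter for each replicate, grew mixed glia, shook the microglia off and kept them overnight in serum-free medium. Mixed glia grew for 10 days with 0.5 ng/ml GM-CSF in 1A, for 10 days with none in 1B, and for 21 days with 0.5 ng/ml GM-CSF in 1C. Protocol 2 pooled 3 adult brains (6 to 8 weeks), and selected microglia by adherence in culture for 7 days, both GM-CSF and M-CSF being present at 100 ng/ml. Its microglia were then replated in serum-free medium and used the next day. Protocol 3 caught cells from adult brain (6 to 8 weeks) on anti-CD11b beads and stimulated them at once, without a growth culture. GM-CSF and M-CSF are growth factors of the myeloid lineage. Age, growth factors, culture time and isolation differ together between Protocols 1, 2 and 3, so that what each contributes to a difference cannot be told apart. The paper describes lower RNA yield and integrity for the freshly isolated adult cells than for the cultured adult cells. It also describes lower purity by flow cytometry for the adult preparations than for the neonatal ones. What RNA quality and purity contribute to differences between the libraries was not tested. Where p-values are given they measure the spread between these libraries.

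Replication is prepared before S phase, when the origin recognition complex, CDC6 and CDT1 place the MCM helicase on DNA as an inactive ring. MCM10, CDC45 and the GINS complex then turn the ring into a moving helicase, primase and the polymerases copy the strands, and PCNA, a clamp loaded by the RFC complex, holds the polymerases on their template. Most of these genes are transcribed late in G1 under E2F transcription factors, which are released when cyclin-dependent kinases inactivate the RB protein; in the brain, microglia renew themselves by slow local division, and GM-CSF and M-CSF are known to make them divide in culture.

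Because E2F is the best known regulator of this set, windows at annotated transcription starts of the genes were read for the letters of its core site. RefSeq windows of GRCm38.p6, from 250 bases before a transcription start to 50 after it, were found for 46 of the 56 genes (55 windows). Of the 55 starts 37 lay within 100 bases of the 5′ end of the deposited gene, and others lay further off, that of Cdc6 by 350 bases into the gene and that of the Dnmt1 window with E2F letters by 7265 bases. Those letters (TTTCCCGC, TTTGGCGC, TTTCGCGC or TTTGCCGC on either strand, with overlapping matches counted) stood in a window of 19 of the 46 genes, 41.3%, against 2.61% of the 27025 genes that have one and 2.26% of all 32817 windows of that length. Of the 26 matches 16 were centred within 100 bases of the start, and 6 genes had at least 2 matches in a window. The letters CCAAT, the box bound by NF-Y, stood in 29 of the 46 genes (63.0%, against 41.1% of the genes that have a window), and TTTGAA or TTCGAA, letters of the CHR element of mitotic promoters, in 9 (19.6%, against 21.7%). A match is a run of letters and was not tested for binding. The genes with an E2F match were Brca2, Cdc6, Cdt1, Clspn, Dnmt1, E2f2, Gins3, Lig1, Mcm3, Mcm5, Mcm6, Mcm7, Msh6, Orc1, Pola1, Pold1, Pole2, Rfc3 and Uhrf1. Atad2, Ccne2, Exo1, Gins1, Gins2, Gins4, Mcm4, Pole, Prim2 and Rfc2 had no window in the table used.

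The windows printed here are those of 2 helicase subunits with clustered matches (Mcm5 at chr8:75109339-75109528 on the plus strand, Mcm6 at chr1:128359686-128359875 on the minus strand), a loader and a polymerase subunit with 1 match each (Cdc6 at chr11:98907981-98908170, plus strand, and Pola1 at chrX:93632136-93632325, minus strand), and the 2 genes that rose with HMGB1 in all 3 neonatal protocols, Mcm10 (chr2:5012772-5012961, minus strand) and Rfc3 (chr5:151651194-151651223, minus strand). They run 5′ to 3′ in the direction of the gene, 170 bases before the start to 20 after it, and for Rfc3 only 15 bases before to 15 after. Capitals mark the E2F letters.
Mcm5: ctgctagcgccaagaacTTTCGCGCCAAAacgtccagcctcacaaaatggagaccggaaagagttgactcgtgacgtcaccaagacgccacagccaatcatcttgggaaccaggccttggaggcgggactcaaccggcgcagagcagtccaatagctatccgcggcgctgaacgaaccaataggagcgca
Mcm6: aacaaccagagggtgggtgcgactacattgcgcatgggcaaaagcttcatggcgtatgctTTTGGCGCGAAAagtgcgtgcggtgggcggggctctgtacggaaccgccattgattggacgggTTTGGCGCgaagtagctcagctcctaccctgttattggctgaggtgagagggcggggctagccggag
Cdc6: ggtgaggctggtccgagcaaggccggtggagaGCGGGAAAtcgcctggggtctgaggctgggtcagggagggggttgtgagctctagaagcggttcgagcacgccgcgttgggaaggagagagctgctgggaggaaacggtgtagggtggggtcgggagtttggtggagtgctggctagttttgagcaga
Pola1: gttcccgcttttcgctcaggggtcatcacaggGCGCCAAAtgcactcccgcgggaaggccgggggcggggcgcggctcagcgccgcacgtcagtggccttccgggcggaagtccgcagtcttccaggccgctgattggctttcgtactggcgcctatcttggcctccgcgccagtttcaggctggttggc
Mcm10: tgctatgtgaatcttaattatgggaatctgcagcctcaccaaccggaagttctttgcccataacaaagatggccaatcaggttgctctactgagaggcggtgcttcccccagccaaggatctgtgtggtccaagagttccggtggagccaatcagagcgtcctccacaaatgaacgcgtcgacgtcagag
Rfc3: cacgcTTTCGCGCtcGCGGGAAAactctac
In Mcm5 and Mcm6 a pair of matches on opposite strands overlap into a run of capitals longer than a single site, and Mcm6 has 1 more match nearer the start. Mcm10 has no capitals but holds 2 CCAAT boxes, while the Rfc3 stretch has 2 separate E2F matches around its start, so that of the 2 genes that rose 1 has the letters and 1 does not. Of the 32 genes with a window that fell in all 3 neonatal protocols 15 had an E2F match, and of the other 14 with a window 4 had.

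Library totals ran from 14151983 to 28564757 counts (median 21640054), and levels are given as CPM, read counts scaled to a common library size, after scaling of the 30 libraries by trimmed mean of M values (TMM). The lowest correlation of log2 CPM between 2 libraries of a group was 0.981. The 12 microglia and macrophage markers summed to between 3916 and 6759 CPM in the 30 libraries. Among them Tmem119 and P2ry12, singled out here after their values were seen, averaged 60.0 and 189 CPM in the Control libraries of Protocol 3 but at most 5.05 and 35.8 CPM in any group of the other protocols. The rest of the 12 are not given by protocol here, and these 2 do not stand for them. The 8 neutrophil markers, led by S100a9, summed to 342 to 730 CPM in Protocol 3 and to 2.19 to 77.2 CPM elsewhere, and the 8 fibroblast and mural markers to 195 to 413 CPM in Protocol 2 and to at most 96.6 CPM elsewhere. The 8 lymphocyte markers reached 13.2 CPM in Protocol 3 and at most 1.00 CPM elsewhere.

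In the Control libraries the summed level of the 56 genes was highest in the neonatal protocols and lowest in cells used straight from the adult brain. It was 1726, 1806 and 1849 CPM in Protocol 1A from the lowest library to the highest, 1941, 2021 and 2171 CPM in 1B, 1515, 1622 and 1631 CPM in 1C, 980, 1028 and 1038 CPM in Protocol 2, and 659, 692 and 731 CPM in Protocol 3. None of these 5 ranges overlapped another. After HMGB1 the sum was 1025, 1049 and 1065 CPM in 1A, 935, 1118 and 1193 CPM in 1B, 987, 1084 and 1136 CPM in 1C, 970, 1009 and 1174 CPM in Protocol 2, and 651, 710 and 720 CPM in Protocol 3. All 9 neonatal HMGB1 libraries lay below all 9 neonatal Control libraries, whereas in both adult protocols the HMGB1 range spanned the Control range or overlapped it. In bulk RNA fewer cells of a type and less RNA per cell cannot be told apart.

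**Figure D1:**
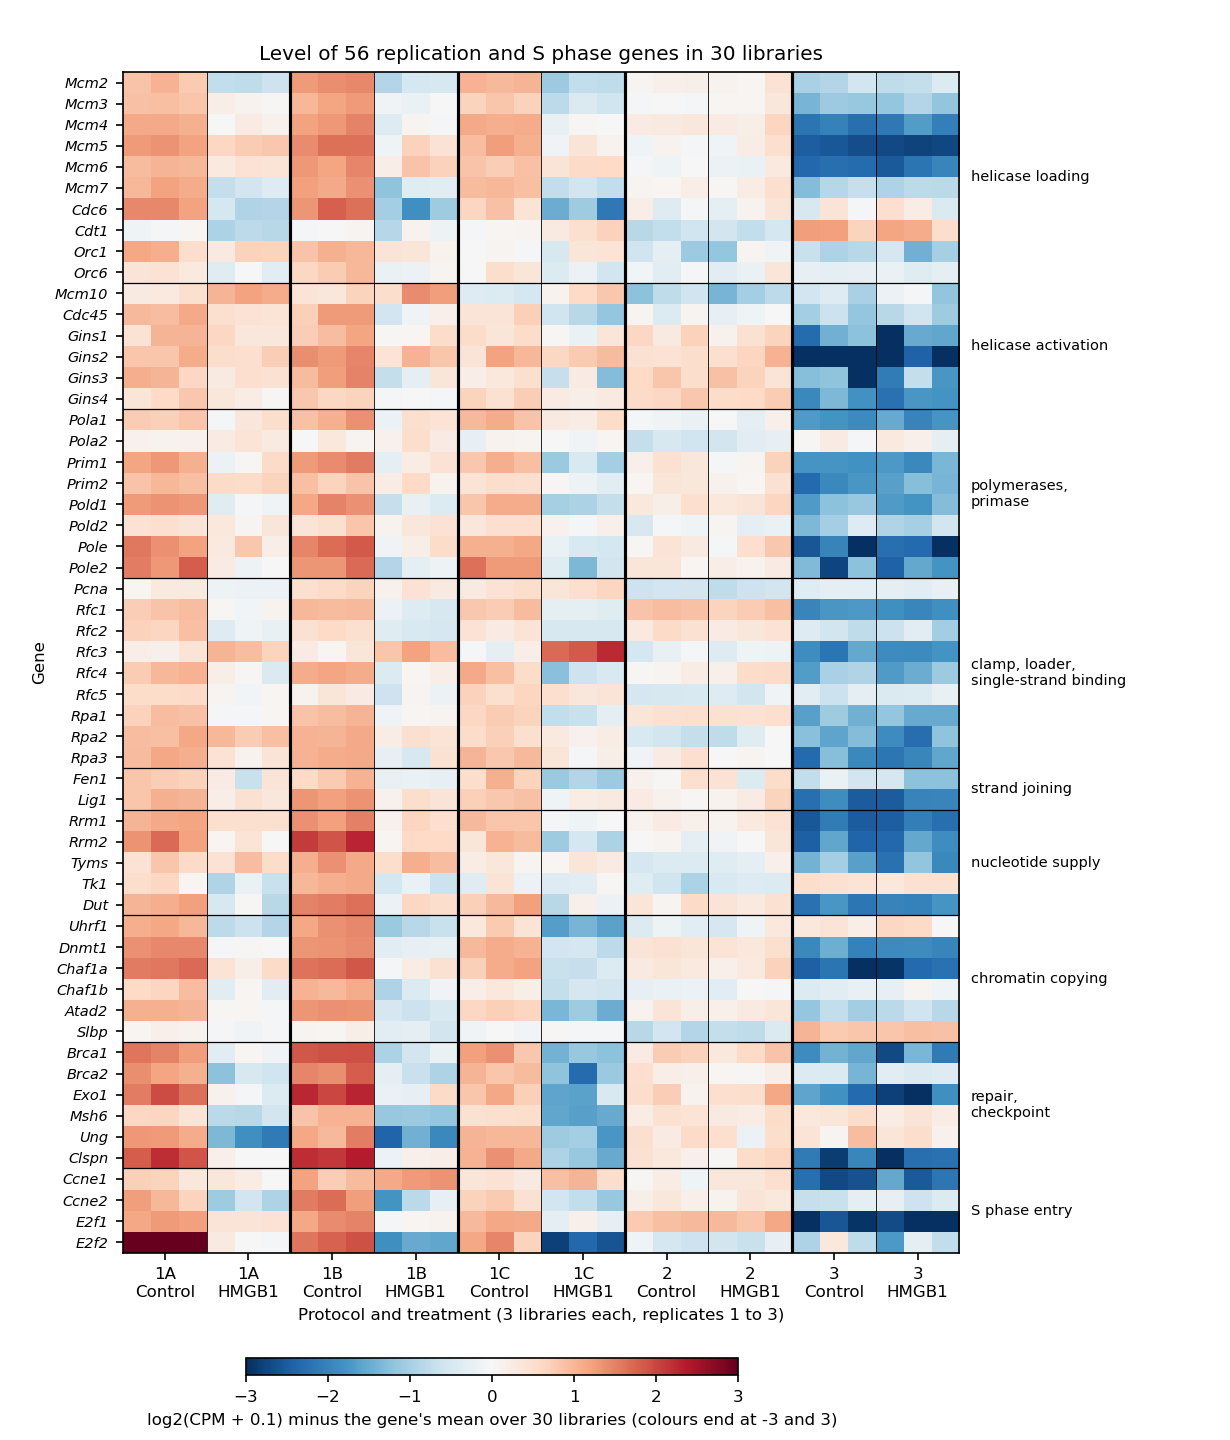
Level of each of the 56 genes (vertical axis, by role) in each of the 30 libraries (horizontal axis, by protocol and treatment), as log2(CPM + 0.1) minus the gene's mean over the libraries, with colours ending at -3 and 3. Most genes are above their mean in the 9 neonatal Control libraries and below it in Protocol 3, while Cdt1 and Slbp have their highest mean levels in Protocol 3.

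Comparing HMGB1 with Control within each protocol asks how the genes respond to the danger signal. In the neonatal protocols nearly the whole set fell. Of the 56 genes 48 fell and 2 rose in 1A, 49 fell and 2 rose in 1B, and 42 fell while 4 rose in 1C (edgeR quasi-likelihood F test, Benjamini-Hochberg adjusted p below 0.05 over all genes tested). Over all genes tested the share that fell was 31.6%, 32% and 31.8%, and the share that rose 29.7%, 29.8% and 28.4%. The median log2 fold change of the 56 was -0.85, -1.23 and -1.16 in 1A, 1B and 1C, against -0.04, -0.02 and -0.04 for all genes tested. The 3 comparisons have no library in common, and across the 56 genes their fold changes correlated with Pearson's r of 0.936 (1A and 1B), 0.873 (1A and 1C) and 0.917 (1B and 1C), a description across genes, which are not independent replicates. In all 3 protocols 40 genes fell, Mcm10 and Rfc3 rose, Pola2 and Tyms passed in none, and 12 had a mixed pattern.

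Scaling matters to the size of these shifts. With library totals in place of TMM the median of all genes tested moved to -0.46, -0.50 and -0.67 in the 3 protocols. Of the 56 genes 54, 53 and 51 then fell, with 1 higher in each. The share of all genes that fell with library totals is not given here. These counts are therefore not to be read against the shares under TMM. The summed levels of some markers of other cells moved with the same contrast. The 8 endothelial markers summed to 28.1 to 48.9 CPM in Control and 67.9 to 109 CPM after HMGB1 in 1A, 15.2 to 19.0 and 40.4 to 71.5 CPM in 1B, and 44.0 to 59.0 and 204 to 305 CPM in 1C. Of them 2, 2 and 3 rose, led by Flt1 and Kdr, while Cldn5 and Emcn averaged at most 0.05 and 0.02 CPM in these 6 groups. The 9 oligodendrocyte lineage markers, led by Mbp, summed to 107 to 113 CPM in Control and 41.0 to 48.7 CPM after HMGB1 in 1A, 83.4 to 92.9 and 33.4 to 72.3 CPM in 1B, and 119 to 203 and 77.2 to 146 CPM in 1C, 2 of them falling in each; Mog averaged 0 CPM in 1A. The 8 astrocyte markers summed to 81.5 to 90.2 and 91.7 to 101 CPM in 1A, 30.8 to 56.5 and 50.3 to 93.2 CPM in 1B, and 43.7 to 56.3 and 58.4 to 71.9 CPM in 1C. Among all genes tested 29.7%, 29.8% and 28.4% rose and 31.6%, 32% and 31.8% fell in 1A, 1B and 1C. The counts of endothelial and oligodendrocyte markers called are thus near those shares or below them. The part of these markers in the result was not tested.

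**Figure D2:**
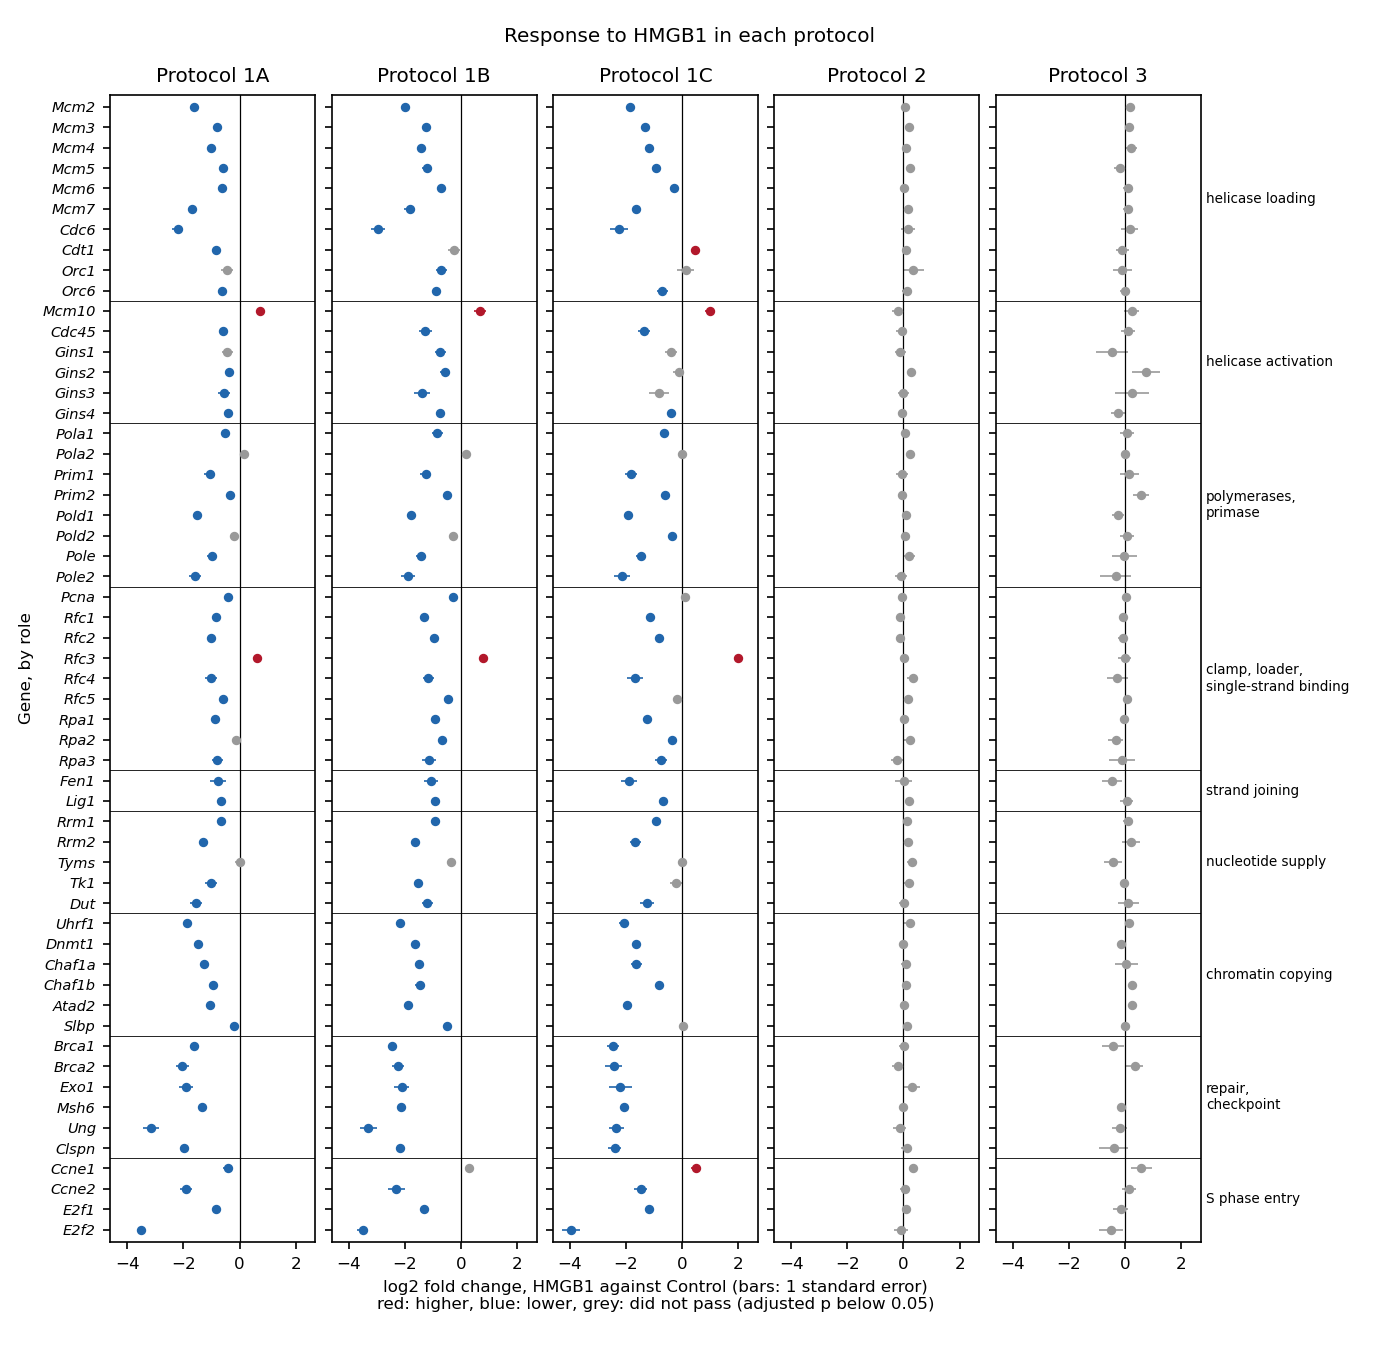
Log2 fold change of HMGB1 against Control (horizontal axis) for each gene (vertical axis, by role) in the 5 protocols, points with bars of 1 standard error, red where the gene rose, blue where it fell and grey where it did not pass (adjusted p below 0.05). Blue points fill the 3 neonatal panels, with Mcm10 and Rfc3 red in each, and every point of Protocols 2 and 3 is grey; the red points of Cdt1 and Ccne1 in 1C turn below 0 with library totals in place of TMM.

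Genes that load the helicase fell together. Of the 10, 9 were lower in each of 1A and 1B and 8 in 1C. The medians were -0.82, -1.23 and -1.06. Mcm2 (ENSMUSG00000002870, chr6:88883474-88898780, minus strand), a subunit of the helicase ring, stood at 40.2, 45.7 and 38.4 CPM in the Control libraries of 1A and 13.3, 13.1 and 14.5 CPM after HMGB1, a log2 fold change of -1.63 (SE 0.10, adjusted p = 5.54e-09). It went from 54.5, 58.2 and 60.7 to 12, 15.3 and 15.8 CPM in 1B (-1.99, SE 0.10, adjusted p = 4.64e-08) and from 45.8, 43.8 and 44.9 to 10.5, 13.3 and 13.1 CPM in 1C (-1.86, SE 0.11, adjusted p = 6.78e-08). In each of these protocols every Control library was above every HMGB1 library by a wide margin. The other ring subunits fell too, with log2 fold changes of -1.70, -1.81 and -1.63 in 1A, 1B and 1C for Mcm7, the furthest of them, and of -0.63, -0.70 and -0.29 for Mcm6. The Mcm6 call in 1C was lost without the HMGB1 library of replicate 1 (-0.22, adjusted p = 0.0750).

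Cdc6 (ENSMUSG00000017499, chr11:98907801-98923940, plus strand), the ATPase that brings the ring to the origin, fell furthest of the loaders. Its Control libraries held 8.03, 8.1 and 6.87 CPM in 1A, 7.4, 10.3 and 9.4 CPM in 1B and 4.64, 5.46 and 3.88 CPM in 1C. After HMGB1 they held 2.01, 1.51 and 1.54 CPM, 1.38, 0.742 and 1.33 CPM and 0.979, 1.34 and 0.582 CPM, with no overlap in any of the 3. The log2 fold changes were -2.21 (SE 0.20, adjusted p = 4.63e-07), -2.95 (SE 0.25, adjusted p = 2.16e-06) and -2.26 (SE 0.32, adjusted p = 7.03e-05). Orc6, a subunit of the origin recognition complex, fell in all 3 (-0.61, -0.89 and -0.70). Orc1, its largest subunit, passed in 1B alone (-0.70, SE 0.20, adjusted p = 0.00974), with values of -0.44 in 1A and 0.12 in 1C.

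Cdt1 (ENSMUSG00000006585, chr8:122568015-122573554, plus strand), the partner of CDC6 in loading, did not follow the ring. In 1A it went from 55.8, 60.2 and 64.1 CPM to 31.9, 35.7 and 34.6 CPM, a fall of all 3 libraries (-0.84, SE 0.08, adjusted p = 3.37e-07). In 1B it was 58.4, 61.7 and 64.9 CPM in Control and 34.1, 65.6 and 55.3 CPM after HMGB1, groups that overlapped (-0.24, SE 0.23, adjusted p = 0.4). In 1C it was 60.0, 64.3 and 64.7 CPM and 73.7, 85.7 and 98.8 CPM, the HMGB1 libraries all above the Control libraries (0.46, SE 0.11, adjusted p = 0.00293), a direction that turned with library totals in place of TMM (-0.18).

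Helicase activation was the role whose medians were nearest 0. Of the 6, 1A had 4 that fell, 1B had 5 and 1C had 2, with 1 that rose in each. Of all genes tested 31.6%, 32% and 31.8% fell, and 29.7%, 29.8% and 28.4% rose. The 2 that fell in 1C are thus near the share of all genes. The medians were -0.43, -0.73 and -0.40. The gene that rose was Mcm10 (ENSMUSG00000026669, chr2:4989714-5012791, minus strand), which bridges the ring and the polymerases when the helicase starts. It stood at 13.9, 14.3 and 16.2 CPM in Control and 23.5, 26.8 and 25 CPM after HMGB1 in 1A (0.74, SE 0.10, adjusted p = 2.07e-05). In 1B the values were 15.2, 14.7 and 18.3 and 16.8, 31 and 27.8 CPM (0.67, SE 0.21, adjusted p = 0.0274), where the HMGB1 library of replicate 1 lay within the Control range. In 1C they were 8.8, 8.71 and 7.93 and 12.6, 17.5 and 20.3 CPM (0.99, SE 0.18, adjusted p = 0.000469), with no overlap. The 1B call was lost on leaving out Control replicate 1 or 2 or HMGB1 replicate 2 or 3 (0.48 to 0.62, adjusted p = 0.0861 to 0.0973), and with library totals in place of TMM the gene did not pass in 1B (0.19) or 1C (0.35). Cdc45, a stable part of the moving helicase, fell in all 3 (-0.60, -1.26 and -1.36), and so did Gins4 (-0.42, -0.73 and -0.39). The Gins4 call was lost in 1A without Control or HMGB1 replicate 3 (-0.30 and -0.34, adjusted p = 0.0644 and 0.0567) and in 1C without Control replicate 3 or HMGB1 replicate 2 (-0.34 and -0.36, adjusted p = 0.0672 and 0.0576). Gins1, Gins2 and Gins3, the other GINS subunits, fell in 1B (-0.73, -0.58 and -1.39) and did not pass in 1C.

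Polymerases and primase fell in most cases, 6 of 8 in 1A, 6 in 1B and 7 in 1C, with medians of -0.74, -1.05 and -1.06 and none that rose. Pold1 (ENSMUSG00000038644, chr7:44532746-44548849, minus strand), the catalytic subunit of polymerase delta, was at 33.7, 35 and 34 CPM in Control and 10.7, 13.4 and 12.7 CPM after HMGB1 in 1A (-1.50, SE 0.10, adjusted p = 1.52e-08). In 1B it was at 30.7, 38.5 and 35.9 and 8.45, 11.7 and 10.4 CPM (-1.77, SE 0.13, adjusted p = 1.01e-06) and in 1C at 24.7, 29.8 and 30.0 and 6.81, 7.05 and 8.31 CPM (-1.92, SE 0.14, adjusted p = 2.31e-07). Control and HMGB1 libraries were clearly apart in each. Pole2, a subunit of polymerase epsilon, fell (-1.58, -1.89 and -2.15), Pole, its catalytic subunit, (-0.97, -1.42 and -1.48), and Prim1, the catalytic subunit of primase, (-1.06, -1.26 and -1.82). Within the polymerase alpha complex the subunits differed: Pola1, the catalytic one, fell (-0.52, -0.84 and -0.64), while Pola2, the accessory one, did not pass. Pola2 stood at 25.5, 25.3 and 25.6 CPM in Control and 28.1, 31.1 and 28.5 CPM after HMGB1 in 1A, 0.17 with an adjusted p of 0.0835, and at 0.17 and -0.01 in 1B and 1C. It fell in all 3 with library totals in place of TMM.

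Of the 9 clamp, clamp loader and single-strand binding genes 7 fell and 1 rose in 1A, 8 fell and 1 rose in 1B, and 6 fell and 1 rose in 1C. Pcna (ENSMUSG00000027342, chr2:132249162-132253314, minus strand), the sliding clamp, had the highest level per kilobase of gene length of the 56 in all 10 groups, for example 112 ± 9.23 RPKM (SD, n = 3) in the Control group of 1A, 64.7 ± 1.52 in that of Protocol 2 and 77.4 ± 2.27 in that of Protocol 3. Its fall was shallow. It went from 243, 282 and 280.2 to 208, 204 and 206 CPM in 1A (-0.41, SE 0.07, adjusted p = 0.000185) and from 323, 343 and 368 to 251, 313 and 281 CPM in 1B (-0.29, SE 0.09, adjusted p = 0.0155). In 1C it was at 280.2, 312 and 335 CPM in Control and 296, 327 and 362 CPM after HMGB1 (0.09, SE 0.11, adjusted p = 0.465). The groups were apart in 1A and 1B and overlapped in 1C. The 1B call was lost without Control replicate 2 or 3 or HMGB1 replicate 1 or 3 (-0.22 to -0.28, adjusted p = 0.0515 to 0.0631). Rpa1, the large subunit of the single-strand binding protein, fell (-0.88, -0.92 and -1.24).

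Rfc3 (ENSMUSG00000033970, chr5:151642756-151651242, minus strand), a small subunit of the clamp loader, moved opposite to its partners. In 1A it stood at 13.5, 13 and 15.4 CPM in Control and 23.6, 22.3 and 18.7 CPM after HMGB1 (0.61, SE 0.11, adjusted p = 0.000385). In 1B it stood at 13.8, 12.1 and 15.1 and 20.8, 27.2 and 22.2 CPM (0.79, SE 0.13, adjusted p = 0.000307). In 1C it rose from 11.3, 9.66 and 13.4 to 38.3, 41.9 and 55.7 CPM (1.99, SE 0.16, adjusted p = 1.24e-06). Each HMGB1 library was above each Control library in all 3 protocols, and the 1C libraries after HMGB1 were the highest of the 30 for this gene. With library totals in place of TMM the gene did not pass in 1A (0.18). Over the same contrasts the other loader subunits gave -0.85, -1.32 and -1.15 for Rfc1, -1.02, -0.94 and -0.84 for Rfc2, -1.02, -1.16 and -1.68 for Rfc4, and -0.57, -0.44 and -0.19 for Rfc5. All of these passed as lower but Rfc5 in 1C, and the Rfc5 call in 1B was lost without Control replicate 2 or 3 or HMGB1 replicate 1 or 3 (-0.29 to -0.45, adjusted p = 0.0738 to 0.129).

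Both lagging strand joining genes fell in all 3 protocols, Lig1, the ligase that seals the fragments, (-0.67, -0.94 and -0.67), and Fen1, the nuclease that trims them, (-0.76, -1.07 and -1.88). The Fen1 call in 1A was lost without Control replicate 1 or 2 or HMGB1 replicate 2 (-0.47 to -0.78, adjusted p = 0.0668 to 0.112). The strand setting of the counting was not given in the sources used here. Since 78.8% of the exon bases of Fen1, 67.3% of those of Gins2 and 52.5% of those of Chaf1a lie over exons of a gene on the opposite strand, the levels of these genes are uncertain. Of the 5 nucleotide supply genes 4 fell in each of 1A and 1B and 3 in 1C. Rrm2, the inducible subunit of ribonucleotide reductase, was at 23.9, 30.6 and 21.6 CPM in Control and 9.76, 12.5 and 9.31 CPM after HMGB1 in 1A (-1.29, SE 0.15, adjusted p = 1.67e-05). Its values were 40.3, 35.2 and 46.1 and 9.84, 14.3 and 14.1 CPM in 1B (-1.64, SE 0.15, adjusted p = 7.99e-06) and 12.2, 19.5 and 18.1 and 4.41, 6.47 and 4.82 CPM in 1C (-1.67, SE 0.21, adjusted p = 2.94e-05). Its groups did not overlap in any of the 3. Tyms, thymidylate synthase, was at 7.88, 10.3 and 8.61 CPM in Control and 7.81, 11.1 and 8.44 CPM after HMGB1 in 1A (0.01), and did not pass in 1B (-0.33) or 1C (0.01). Tk1, the thymidine kinase of dividing cells, fell in 1A (-1.01) and 1B (-1.53) and was -0.21 in 1C (adjusted p = 0.423).

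Chromatin copying genes fell, 6 of 6 in 1A and 1B and 5 of 6 in 1C, with medians of -1.16, -1.56 and -1.64. Dnmt1 (ENSMUSG00000004099, chr9:20907209-20959888, minus strand), which copies DNA methylation onto the new strand, went from 174, 181 and 181 to 63.6, 68.2 and 66 CPM in 1A (-1.46, SE 0.06, adjusted p = 1.26e-10). In 1B the change was from 166, 171 and 179 to 52.8, 56.6 and 57.1 CPM (-1.62, SE 0.06, adjusted p = 6.05e-09), and in 1C from 130.1, 144 and 137 to 45, 47 and 38.5 CPM (-1.65, SE 0.10, adjusted p = 4.80e-08). Uhrf1, which recruits DNMT1 to newly copied sites, fell (-1.87, -2.18 and -2.08). The subunits of the histone chaperone CAF-1, Chaf1a (-1.26, -1.49 and -1.63) and Chaf1b (-0.96, -1.47 and -0.83), fell as well. Slbp, which binds the stem-loop of histone mRNA, was the exception of this role. It was at 31.3, 33.1 and 32 CPM in Control and 28.9, 27.7 and 28.5 CPM after HMGB1 in 1A (-0.20, SE 0.08, adjusted p = 0.0385). Its levels were 31.4, 31 and 34, then 24.1, 24.5 and 20.3 CPM in 1B (-0.48, SE 0.09, adjusted p = 0.00106). In 1C they were 27.9, 30.1 and 28.3 and 30.7, 28.7 and 28.9 CPM (0.04, SE 0.09, adjusted p = 0.735), which overlap. Its 1A call was lost whichever 1 of the 6 libraries was left out (adjusted p = 0.0532 to 0.119).

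Repair and checkpoint genes had the lowest medians of the 9 roles, -1.94, -2.20 and -2.38 in 1A, 1B and 1C, and all 6 fell in each. Ung (ENSMUSG00000029591, chr5:114130386-114139323, plus strand), which cuts uracil out of DNA, went from 5.95, 5.85 and 5.22 to 0.867, 0.584 and 0.469 CPM in 1A (-3.15, SE 0.27, adjusted p = 2.22e-07). In 1B the change was from 5.37, 4.75 and 7.01 to 0.364, 0.804 and 0.541 CPM (-3.29, SE 0.32, adjusted p = 5.74e-06), and in 1C from 4.85, 4.79 and 4.83 to 1.07, 1.11 and 0.635 CPM (-2.35, SE 0.28, adjusted p = 1.72e-05). No HMGB1 library of these protocols came near a Control library. Msh6, a mismatch sensor, went from 24.5, 25 and 21.2 to 9.05, 8.85 and 10.7 CPM in 1A (-1.34). It fell from 28.8, 32.9 and 32.8 to 7.21, 7.29 and 7.03 CPM in 1B (-2.13) and from 21.9, 22.1 and 23.1 to 5.3, 5.07 and 5.5 CPM in 1C (-2.07). Brca1 and Brca2, of homologous recombination, Clspn, the adaptor that activates the checkpoint kinase CHK1, and Exo1, a nuclease, fell in all 3, with log2 fold changes between -1.62 (Brca1 in 1A) and -2.47 (Brca1 in 1C).

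Among the 4 S phase entry regulators E2f2 fell further than any other of the 56 genes in all 3 protocols. E2f2 (ENSMUSG00000018983, chr4:136172394-136196057, plus strand), an activating E2F factor, stood at 40.9, 44.1 and 35.5 CPM in the Control libraries of 1A and 4.07, 3.41 and 3.28 CPM after HMGB1 (-3.51, SE 0.13, adjusted p = 3.64e-11). In 1B it went from 10.6, 11.8 and 13 to 0.874, 1.11 and 1.08 CPM (-3.50, SE 0.19, adjusted p = 5.69e-08) and in 1C from 7.73, 9.58 and 5.45 to 0.401, 0.583 and 0.476 CPM (-3.96, SE 0.31, adjusted p = 6.27e-07). The falls were alike in size although the Control levels of 1B and 1C were far below that of 1A. E2f1, its paralogue, fell (-0.85, -1.32 and -1.19) and Ccne2, a cyclin partner of CDK2, (-1.90, -2.30 and -1.48). Ccne1, the paralogue of Ccne2, was at 10.3, 9.96 and 7.91 CPM in Control and 7.97, 7.35 and 6.16 CPM after HMGB1 in 1A (-0.41, SE 0.16, adjusted p = 0.0354). In 1B the values were 14.6, 10.5 and 12.2 and 13.9, 15.2 and 16 CPM (0.29, SE 0.13, adjusted p = 0.0807). In 1C they were 8.05, 8.4 and 7.52 and 11.8, 12.7 and 9.05 CPM (0.49, SE 0.16, adjusted p = 0.022), a rise turning to -0.14 with library totals in place of TMM. The 1A call was lost without Control replicate 1 or 2 or HMGB1 replicate 2 or 3 (-0.32 to -0.42, adjusted p = 0.0706 to 0.133). The 1C call was lost without Control replicate 3 or HMGB1 replicate 1 or 2 (0.40 to 0.46, adjusted p = 0.0592 to 0.0852).

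**Figure D3:**
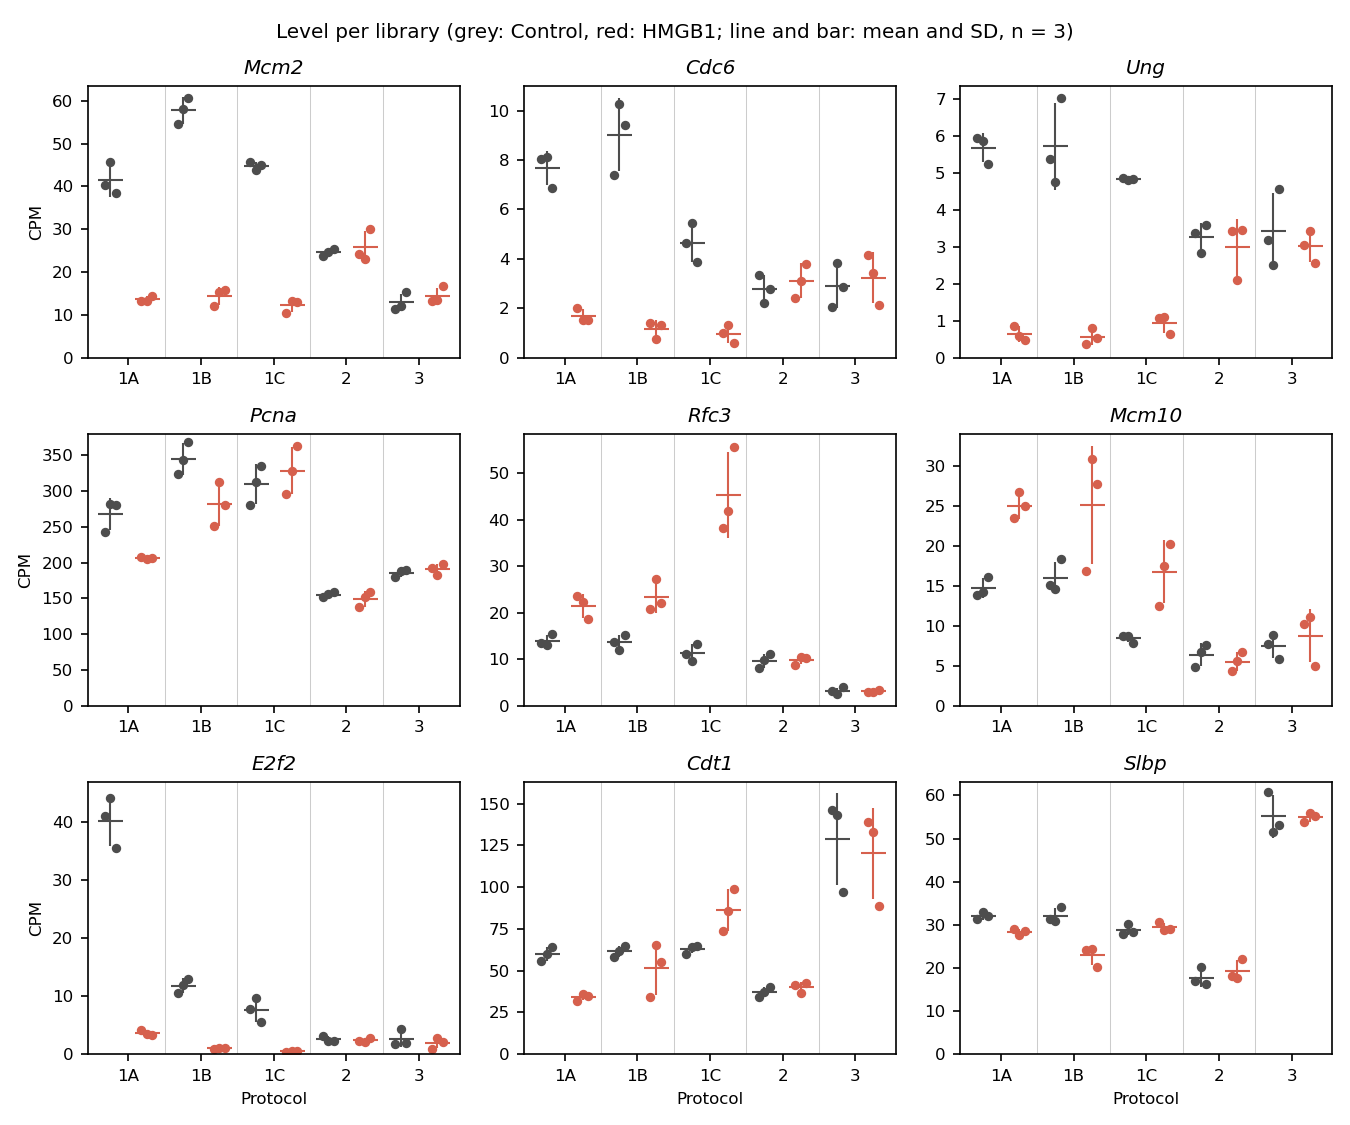
Level (vertical axis, CPM) of Mcm2, Cdc6, Ung, Pcna, Rfc3, Mcm10, E2f2, Cdt1 and Slbp in each library by protocol (horizontal axis), grey for Control and red for HMGB1, with the mean and SD of 3 libraries. Red points lie below grey ones for Mcm2, Cdc6, Ung and E2f2 in the neonatal protocols and above them for Rfc3, while Cdt1, whose red points in 1C fall below 0 in log2 fold change with library totals in place of TMM, and Slbp have their highest means in Protocol 3.

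In adult microglia none of the genes passed. Of the 56 tested in Protocol 2 and the 55 tested in Protocol 3 (Exo1 was too low there), edgeR and DESeq2 each called 0, and at an unadjusted p below 0.05 edgeR gave 2 in Protocol 2 and 0 in Protocol 3. The share of all genes called in either direction was 1.49% in Protocol 2 and 0.123% in Protocol 3. The median log2 fold change of the genes was 0.07 and 0.01 (0.00 and -0.01 over all genes), the range -0.22 to 0.34 and -0.49 to 0.75, and the median SE 0.15 and 0.25. The 2 groups did not overlap for 3 genes that were higher and 0 that were lower in Protocol 2, and for 1 higher and 1 lower in Protocol 3, against 7.67% higher and 6.4% lower of all genes tested in Protocol 2 and 4.75% and 6.59% in Protocol 3. They were Mcm3, Tyms and Ccne1 in Protocol 2 (log2 fold changes of 0.19, 0.30 and 0.34) and Prim2 (0.58) and Mcm5 (-0.16) in Protocol 3. Mcm2 was at 23.7, 24.8 and 25.3 CPM in Control and 24.1, 23.1 and 30.1 CPM after HMGB1 in Protocol 2 (0.06, SE 0.10, adjusted p = 0.957). It was at 11.3, 12.1 and 15.3 and 13.2, 13.5 and 16.6 CPM in Protocol 3 (0.18, SE 0.15, adjusted p = 0.995). E2f2 was at 3.1, 2.33 and 2.17 and 2.29, 2.09 and 2.85 CPM in Protocol 2 (-0.08) and at 1.74, 4.25 and 1.96 and 0.954, 2.8 and 2.00 CPM in Protocol 3 (-0.49). For both genes the groups overlapped in both protocols. Rfc3 was at 8.06, 9.91 and 11.1 and 8.86, 10.6 and 10.4 CPM in Protocol 2 and at 3.12, 2.46 and 3.95 and 3.05, 3.04 and 3.31 CPM in Protocol 3, again overlapping.

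Comparing Control libraries asks how the level of the genes differs between protocols before any stimulus. Against Protocol 2, the mean of Protocols 1A, 1B and 1C was higher for 51 of the 56 genes and lower for 0, where 24.6% of all genes tested were higher and 30.7% lower; the median difference was 0.92 on the log2 scale. Against Protocol 3 it was higher for 52 and lower for 2, against 37.3% and 42.9% of all genes, with a median of 2.18. Protocol 2 was above Protocol 3 for 41 genes and below it for 6, against 40.1% and 37.2% of all genes, with a median of 1.37. In these comparisons Protocol 1 is shared by the first and the second, and Protocols 2 and 3 by the third, so that they are not independent. With library totals in place of TMM the median of all genes tested was 0.11, 0.33 and 0.39.

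Gins2 had the widest gap to Protocol 3, and E2f1 and Mcm5 were among the 6 genes with the widest. The level of Gins2 is uncertain, since 67.3% of its exon bases lie over exons of a gene on the opposite strand. Gins2 was at 11.4, 11.4 and 13.7 CPM in 1A, 8.69, 8.57 and 9.18 CPM in Protocol 2 and 0.307, 0.677 and 0.383 CPM in Protocol 3, 4.81 (SE 0.23, adjusted p = 1.17e-13) for Protocol 1 against 3. E2f1 (ENSMUSG00000027490, chr2:154559407-154569892, minus strand) was at 40.9, 44.2 and 43.1 CPM in 1A, 31.5, 34.1 and 36.2 CPM in Protocol 2 and 2.2, 3.00 and 2.3 CPM in Protocol 3, 4.04 (SE 0.12, adjusted p = 2.68e-17). Mcm5 was at 50.8, 54 and 48.3 CPM in 1A, 19.3, 22.5 and 20.1 CPM in Protocol 2 and 3.68, 3.53 and 3.23 CPM in Protocol 3, 3.86 (SE 0.11, adjusted p = 2.62e-17). For each of these every Protocol 3 library was below every library of the other protocols. Exo1 was the lowest of all, with 4 to 7 counts in the Control libraries of Protocol 3 and 0 to 5 after HMGB1.

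Rfc1, the large clamp loader subunit, was far lower in Protocol 3 than in any cultured group. It stood at 49.6, 53.3 and 56.1 CPM in 1A, 58.7, 56.8 and 58 CPM in 1B, 51.7, 50.3 and 57.3 CPM in 1C and 53.4, 55.9 and 54.4 CPM in Protocol 2, against 7.42, 8.7 and 8.8 CPM in Protocol 3. Protocol 1 against 2 gave 0.03 (SE 0.06, adjusted p = 0.681) and Protocol 1 against 3 gave 2.66 (SE 0.08, adjusted p = 3.25e-17). Gins1, Gins3, Gins4 and Rfc2 were the other genes that did not pass between Protocols 1 and 2, with differences of 0.27, 0.22, 0.00 and 0.12. The calls of Rfc3 and Fen1 between these protocols were lost without Protocol 2 Control replicate 1 (0.35, adjusted p = 0.0628, and 0.56, adjusted p = 0.0585).

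A few genes ran against the order of the set and were highest in freshly isolated adult cells. Cdt1 was at 146, 143 and 97 CPM in Protocol 3, above every library of Protocol 2 (34.4, 36.9 and 40.3 CPM) and every Control library of the neonatal protocols (55.8 to 64.9 CPM). Protocol 1 against 3 gave -1.12 (SE 0.09, adjusted p = 7.47e-10) and Protocol 2 against 3 -1.88 (SE 0.12, adjusted p = 3.25e-11). Slbp was at 60.7, 51.6 and 53 CPM in Protocol 3, 16.9, 20.1 and 16.2 CPM in Protocol 2 and 31.3, 33.1 and 32 CPM in 1A, giving -0.88 (SE 0.07, adjusted p = 4.20e-10) and -1.72 (SE 0.09, adjusted p = 1.20e-12). Tk1 did not pass between Protocols 1 and 3 (-0.02, SE 0.15, adjusted p = 0.933) and was at 16, 15.4 and 14.7 CPM in Protocol 3 and 16.1, 17.2 and 11.5 CPM in 1A, and it was lower in Protocol 2 than in Protocol 3 (-1.18). Pola2, Uhrf1 and Pcna were lower in Protocol 2 than in Protocol 3 as well (-0.78, -0.69 and -0.34). The 8 neutrophil markers were high in the same Protocol 3 libraries, with sums of 342, 366 and 730 CPM from the lowest to the highest, and their part in these levels was not tested.

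The neonatal Control libraries also differed among themselves. Without GM-CSF (1B against 1A) 21 of the 56 genes were higher and 1 lower, against 18.2% and 12.6% of all genes, and the median difference was 0.26. All 5 nucleotide supply genes were higher in 1B, among them Rrm2 (23.9, 30.6 and 21.6 CPM in 1A and 40.3, 35.2 and 46.1 CPM in 1B, a difference of 0.71, SE 0.19, adjusted p = 0.0102) and Tyms (0.63, SE 0.16, adjusted p = 0.00416), as were 6 of the 10 helicase loading genes, among them Mcm2 (0.52, SE 0.10, adjusted p = 0.000348). This count rested on few libraries, being 14 without 1A Control replicate 2 and 11 without 1B Control replicate 3. After the longer culture (1C against 1A) 0 genes were higher and 15 lower, against 13.1% and 7.91% of all genes, with a median of -0.22. Chromatin copying led, with 5 of 6 lower, among them Chaf1a (16.4, 16.5 and 17.9 CPM in 1A and 8.96, 11.9 and 12.7 CPM in 1C, a difference of -0.58, SE 0.14, adjusted p = 0.0055) and Uhrf1 (-0.55, SE 0.11, adjusted p = 0.00162). E2f2 was the gene that was lower in both, with the Control values of 1B and 1C given above well below those of 1A, by -1.73 (SE 0.24, adjusted p = 4.39e-05) in 1B and -2.39 (SE 0.24, adjusted p = 6.19e-06) in 1C. Both comparisons use the same 1A libraries.

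**Figure D4:**
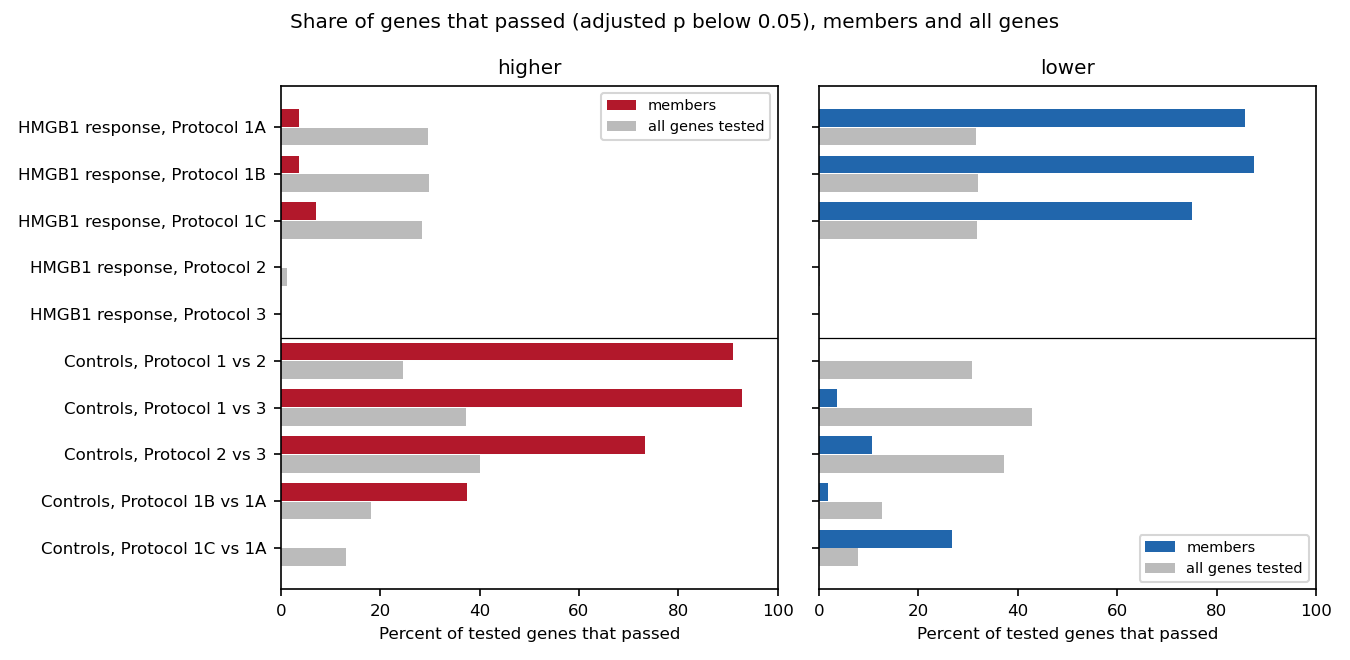
Percent of genes that passed (horizontal axis, adjusted p below 0.05) as higher (left) and as lower (right) in each comparison (vertical axis), coloured bars for the 56 genes and grey bars for all genes tested. The coloured bars stand far above the grey ones for lower in the 3 neonatal responses and for higher in the Control comparisons of Protocol 1 with Protocols 2 and 3, and are absent for the responses of Protocols 2 and 3.

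The differences between responses were tested as interaction terms in a fit of all 30 libraries. Against Protocol 1A the response of 1B was lower for 5 genes and higher for 0, against 3.21% and 3.7% of all genes. With a replicate block, which pairs same-numbered libraries, 8 were lower and 2 higher. The shares of all genes given here are those without the block. The 5 were Mcm3 (-0.49, SE 0.14, adjusted p = 0.0238), Mcm5 (-0.66, SE 0.21, adjusted p = 0.0486), Rfc1 (-0.50, SE 0.12, adjusted p = 0.00514), Atad2 (-0.86, SE 0.14, adjusted p = 0.000109) and Msh6 (-0.82, SE 0.15, adjusted p = 0.000507). Leaving out 1 library lost Mcm5 in most cases, for example without 1A HMGB1 replicate 3 (-0.62, adjusted p = 0.113), and lost Mcm3 without 1A Control replicate 3, 1A HMGB1 replicate 1, 1B Control replicate 2 or 3, or 1B HMGB1 replicate 2 (-0.43 to -0.48, adjusted p = 0.0565 to 0.0895). The response of 1C differed from that of 1A in 9 genes, lower for 4 and higher for 5, against 8.53% and 5.46% of all genes, and with the replicate block 10 were lower and 5 higher. The 4 that fell further in 1C were Mcm3 (-0.57, SE 0.14, adjusted p = 0.00495), Rfc1 (-0.34, SE 0.12, adjusted p = 0.0481), Atad2 (-0.95, SE 0.14, adjusted p = 2.64e-05) and Msh6 (-0.76, SE 0.16, adjusted p = 0.000873). The 5 on the other side were Rfc3 (1.36, SE 0.21, adjusted p = 4.46e-05), Cdt1 (1.27, SE 0.26, adjusted p = 0.00197), Ccne1 (0.87, SE 0.24, adjusted p = 0.0119), Tk1 (0.77, SE 0.26, adjusted p = 0.0469) and Pcna (0.47, SE 0.12, adjusted p = 0.00619). Rfc1 and Tk1 were lost on leaving out 1 library in many cases, for example without 1A HMGB1 replicate 1 (-0.31 and 0.64, adjusted p = 0.126 and 0.149). With library totals in place of TMM the median of all genes in this contrast was -0.21 and the split was 3 higher and 14 lower.

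Against the mean response of Protocols 1A, 1B and 1C, that of Protocol 2 was higher for 45 genes and lower for 2, against 22.9% and 20.6% of all genes, and that of Protocol 3 higher for 40 and lower for 1, against 20.2% and 22.5%. Atad2, a bromodomain ATPase found on replicating chromatin, shows the size. It went from 54.3, 53.8 and 52.1 to 26.5, 27 and 25.2 CPM in 1A and from 39.6, 42.5 and 40.0 to 9.88, 12.2 and 9.1 CPM in 1C. It was at 27.5, 33.9 and 29.2 and 28.4, 30.8 and 33.1 CPM in Protocol 2 and at 11.4, 15.5 and 12.5 and 14.7, 17 and 14.5 CPM in Protocol 3. The difference of response was 1.65 (SE 0.11, adjusted p = 1.66e-13) for Protocol 2 and 1.85 (SE 0.12, adjusted p = 5.84e-14) for Protocol 3. Msh6 gave 1.82 (SE 0.12, adjusted p = 4.21e-14) and 1.69 (SE 0.12, adjusted p = 3.18e-13), Dnmt1 1.58 (SE 0.10, adjusted p = 3.79e-14) for Protocol 2 and Mcm2 1.99 (SE 0.14, adjusted p = 3.99e-13) for Protocol 3. On the other side were Rfc3 (-1.09, SE 0.18, adjusted p = 6.51e-06 for Protocol 2, and -1.16, SE 0.22, adjusted p = 6.78e-05 for Protocol 3) and, for Protocol 2, Mcm10 (-1.01, SE 0.28, adjusted p = 0.00491). Both sets of differences are taken from the same Protocol 1 libraries. The medians of all genes were 0.55 and 0.49 with library totals in place of TMM.

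Genes beside the 56 were followed as lists chosen by pathway, and their counts stand against 31.6%, 32% and 31.8% of all genes tested that fell and 29.7%, 29.8% and 28.4% that rose in 1A, 1B and 1C. Of 35 other replication genes, 1A had 20 that fell and 8 that rose, 1B had 21 and 8, and 1C had 21 and 10. The counts that rose are near the share of all genes or below it. The genes named below as rising therefore do not set this list apart. Gmnn, the inhibitor of CDT1, fell in 1A (-1.95) and 1B (-2.23), as did Wdhd1, which links polymerase alpha to the helicase (-2.20 and -2.40), whereas Pold3 was at -0.04 and -0.04 without passing. Among those that rose in 1C were Hat1, a histone acetyltransferase (1.73), Mcmbp, which binds MCM subunits (1.64), and Timeless, of the fork protection complex (2.07). Of 15 other nucleotide genes 7, 7 and 10 fell and 4, 2 and 3 rose, the 4 in 1A being 26.7% of the list and thus near the share of all genes. Dck, deoxycytidine kinase, rose in 1B (2.00), and Samhd1, which breaks down dNTPs, rose in 1B (2.92) and 1C (2.76). In these lists a protocol is named for a gene by the rule on lowest adjusted p. Responses of the gene in protocols not named are not given here, and no protocol-specific response is meant. Of 15 other E2F and RB genes 8, 11 and 9 fell and 4, 3 and 3 rose, with Rbl1, a repressor of E2F targets, higher (1.04, 1.61 and 2.34) and Tfdp2, a dimer partner of E2F, lower (-2.38, -2.28 and -2.28). In this list too the counts that rose are near the share of all genes or below it. Of 20 other replication repair genes 14, 15 and 13 fell and 0, 0 and 2 rose.

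Mitosis genes were followed as a list of 24. Of them 14 fell and 2 rose in 1A, 19 and 2 in 1B, and 18 and 3 in 1C, against the shares of all genes just given. Kif23, a motor of cell division, fell (-2.12, -2.58 and -2.91), while Cenpe, a kinetochore motor, rose in 1A (0.78) and 1C (1.21). Their summed level in 1A was 409 to 513 CPM in Control and 432 to 551 CPM after HMGB1, ranges that overlapped. The sum was 498 to 604 and 360 to 433 CPM in 1B, which did not overlap, and 234 to 278 and 203 to 238 CPM in 1C, which did. In Protocol 2, 1 of the 24 fell, against 0.283% of all genes tested. In Protocol 3 none of the 22 tested fell, and of all genes tested 0 did. Between Control libraries all 24 were higher in Protocol 1 than in Protocol 2 and all 24 higher than in Protocol 3 (24.6% and 37.3% of all genes were), for example Cdk1, the kinase of mitotic entry (1.54 and 4.58). In 1C against 1A 21 of the 24 were lower, where 15 of the 56 replication genes and 7.91% of all genes were, and in 1B against 1A 3 were higher, where 21 of the 56 and 18.2% of all genes were; whether these shares differ was not tested. For the 35 other replication genes, the Control level of Protocol 1 exceeded that of Protocol 2 in 25 cases and was exceeded by it in 2, with 24 and 7 against Protocol 3. Top1, a topoisomerase, and Donson, a helper of helicase assembly, were lower in Protocol 1 than in Protocol 3 (-3.60 and -2.67). The corresponding counts were 8 and 4, then 10 and 4, for the other nucleotide genes, 11 and 1, then 12 and 2, for the other E2F and RB genes, and 17 and 0, then 16 and 4, for the other replication repair genes, where 24.6% of all genes were higher and 30.7% lower against Protocol 2, and 37.3% and 42.9% against Protocol 3.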

How the data were processed

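Bulk mRNA libraries (NEBNext Ultra II kit) of 30 samples were analysed from 1 table of whole-number gene counts. The counts were made by the authors, per the submitters' processing notes with HISAT2 2.0.5 and featureCounts 1.5.0-p3; genome build, annotation and strand setting were not given in the sources used here. Gene positions equal those of GENCODE M21 (GRCm38) for 98.3% of 54495 shared identifiers.

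From the deposited counts, edgeR 4.0.16 (limma 3.58.1, R 4.3.3) kept genes by filterByExpr, scaled by TMM and ran robust quasi-likelihood F tests, with p-values adjusted by Benjamini-Hochberg over all genes tested and called below 0.05. SE is the log2 fold change over the root of F. Each response was fitted on the 6 libraries of its protocol, Controls on 15 libraries (averaging 1A, 1B and 1C for Protocol 1), and differences of response on 30. The fits were checked on simulated counts in which a small set of genes was changed in both directions. Such counts do not test the choice of scaling where most genes move. CPM and RPKM use TMM over 30 libraries and the deposited gene length. Totals of 14151983 to 28564757 counts limit the precision of genes with few counts. DESeq2 1.42.0, other scaling, filters and designs, and leaving out each library were the alternatives.

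Any of the 56 genes could be named, and of each other list, per comparison, up to 3 passing genes of lowest adjusted p and the most abundant gene that did not pass. From marker lists the highest were named, and a few outside this rule, such as Tmem119 and P2ry12. Of differences of response the 3 with the smallest adjusted p and any against the majority were named, or all where fewer than 10 passed. The members and lists were chosen with earlier results of these data known. Same-numbered Control and HMGB1 libraries deviated together in Protocols 2 (r = 0.288, 0.185 and 0.180) and 3 (0.151, 0.131 and 0.186), where r was above 0.1 in every pair. Those of 1B gave 0.0962, 0.234 and 0.307, the highest above every pair of Protocols 2 and 3. The limit of 0.1 thus does not part 1B from the adult protocols. The pairs of 1A gave 0.0179 to 0.0661 and those of 1C 0.0519 to 0.0902. The main fits paired no libraries in any protocol, so that the main calls of responses and of their differences are all unpaired. A replicate block was run as an alternative for all protocols alike. A gene that the rule would have named among the other replication repair genes is not reported here.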

Additional observations from a re-analysis of the deposited data

Results flagged for a closer look

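The responses to HMGB1 that differed between protocols by the interaction test were those of the report, given here by gene on the log2 scale, in the fit without a replicate block. Between 1B and 1A 0 of the 56 genes were higher and 5 lower, against 3.7% and 3.21% of all genes. The 5 were Mcm3 (-0.49), Mcm5 (-0.66), Rfc1 (-0.50), Atad2 (-0.86) and Msh6 (-0.82). Between 1C and 1A 5 were higher and 4 lower, against 5.46% and 8.53% of all genes, so that the count of lower genes is near that share. The higher were Cdt1 (1.27), Pcna (0.47), Rfc3 (1.36), Tk1 (0.77) and Ccne1 (0.87), and the lower Mcm3 (-0.57), Rfc1 (-0.34), Atad2 (-0.95) and Msh6 (-0.76). With the block the counts were 2 higher and 8 lower between 1B and 1A, and 5 higher and 10 lower between 1C and 1A. Mcm3, Rfc1, Atad2 and Msh6 are in both lists of the unblocked fit, which share the 1A libraries.

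Between Protocol 2 and the mean of Protocols 1A, 1B and 1C 45 genes were higher and 2 lower, against 22.9% and 20.6% of all genes. The 3 with the smallest adjusted p were Dnmt1 (1.58), Msh6 (1.82) and Atad2 (1.65), and the 2 on the other side Mcm10 (-1.01) and Rfc3 (-1.09). Between Protocol 3 and that mean 40 were higher and 1 lower, against 20.2% and 22.5% of all genes. Atad2 (1.85), Msh6 (1.69) and Mcm2 (1.99) were in the lead and Rfc3 (-1.16) was the exception. What in the protocols carries these differences was not tested.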

How the results depend on the processing

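No member's call turned into a call in the opposite direction under any alternative run. With library totals in place of TMM 2 called values in the response of 1C changed sign without passing, Cdt1 (-0.18) and Ccne1 (-0.14), and the count for the 1C against 1A difference of response was 17 (3 higher, 14 lower) instead of 9. Requiring an absolute log2 fold change of at least 1 left 24, 33 and 30 genes in the responses of 1A, 1B and 1C (50, 51 and 46 without it), 19 of 51 for Protocol 1 against 2, 1 of 22 for 1B against 1A, 1 of 15 for 1C against 1A, 0 of 5 for the 1B and 2 of 9 for the 1C difference of response. For the 1B difference DESeq2's Wald test gave 8. The shares of all genes under the alternatives are not given here. Counts of the alternatives are thus not to be read against the shares of the main fits. Pairing same-numbered libraries by a replicate block gave 10 for the 1B difference (2 higher, 8 lower) and 15 for the 1C difference (5 higher, 10 lower), left the adult responses at 0 and 0, and weakened 1 of 438 called values. The 438 include Control comparisons, where the block joins libraries of different protocols by number alone. Deviations of such libraries correlated at -0.137 to 0.132, so for those values the block says little about pairing. Every same-numbered pair of 1B and 1C and 2 of the 3 of 1A correlated best with their own number. Leaving out each library in turn gave 44 to 48, 47 to 51, 42 to 46, 0 to 0 and 0 to 0 for the responses of 1A, 1B, 1C, 2 and 3. The Control counts were 49 to 51, 52 to 54 and 45 to 48 for Protocols 1 against 2, 1 against 3 and 2 against 3, 11 to 24 for 1B against 1A and 10 to 16 for 1C against 1A. The differences of response gave 3 to 6 (1B), 7 to 10 (1C), 43 to 48 (Protocol 2) and 38 to 42 (Protocol 3), the 3 without 1A Control replicate 3, 1A HMGB1 replicate 1, or 1B Control replicate 2 or 3. The cause of these shifts was not tested. Depth limits genes near 1 CPM, of which 9 of the 56 averaged less in the Control group of Protocol 3.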
